A study of Mus musculus with 16 samples.

Results

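Apoptosis and p53 response genes are described here as 38 members, found in the deposited table of 35983 genes by their gene symbols. Each symbol matched exactly 1 gene ID. They comprise 3 effectors, 4 survival proteins and 7 BH3-only proteins of the BCL2 family, 4 caspases with their adaptor *Apaf1*, 3 inhibitors of apoptosis with their antagonist *Diablo*, 3 genes of death receptor signaling, *Trp53* with *Mdm2*, and 10 further p53 targets. *Cdkn1a* was left out of the members and is given with the other pathway genes below.

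In the mitochondrial pathway of apoptosis, BH3-only proteins sense damage or loss of survival signals and bind the survival proteins, which otherwise restrain the effectors. Freed effectors permeabilize the outer mitochondrial membrane, cytochrome c leaves, and APAF1 and caspase-9 start a cascade of caspases. The p53 protein is a transcription factor that is held low by MDM2, and after DNA damage or other stress it activates genes of cell cycle arrest, repair and death. Loss of excess germ cells by apoptosis is part of normal testis development, and the balance of BCL2 family proteins is known to set its extent.

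The study sequenced poly(A) RNA from whole mouse testes of mixed 129Sv and C57Bl/6J background, in 4 groups of 4 samples each. At postnatal day 1 (P1), controls carried 1 floxed and 1 null allele of *Lrh1* (*Lrh1* flox/-) with no Cre, and mutants were *Lrh1* flox/- with *Nanos3-Cre*, which is active in fetal germ cells. At P3, controls were *Lrh1* flox/flox with no Cre, and mutants were *Lrh1* flox/flox with *Dhh-Cre*, which is active in fetal Sertoli cells, the somatic cells of the tubule that support germ cells. All groups carried a floxed allele, and the P1 controls had 1 null allele in every cell, so they were not wild type. Libraries were made from 400 ng of RNA at P3, whereas at P1 3 samples of each group had 500 ng and 1 had 400 ng. Whether a sample came from 1 animal or from several is not given in the labels.

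The values are the authors' mean FPKM of each group, that is, sequenced fragments scaled for the length of the gene and the size of the library. With group means only, no SD, no depth of a sample and no test across samples are given here. Each ratio below stands without its error and has no replicate check, and no difference between means was set against the spread between samples. Ratios are log2 ratios of mean FPKM after 0.1 FPKM was added to each mean, and folds are the same ratios on a linear scale. A gene counted as measured in a comparison if the average of the group means compared was at least 0.5 FPKM, and as past 1.5-fold if its log2 ratio was at least 0.58 in size. Of the 38 members, 37 were measured in each comparison, and *Fasl* was not.

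*Nr5a2*, the gene of LRH1, had means of 0.764 FPKM in P1 controls, 0.491 FPKM in *Nanos3-Cre* mutants, 1.15 FPKM in P3 controls and 0.609 FPKM in *Dhh-Cre* mutants. These are taken over all cells of the testis and are a limited check of a deletion in 1 cell type. The marker lists showed where the groups differed in cell content or in expression per cell, which cannot be told apart from bulk means alone. In *Dhh-Cre* mutants at P3, 10 of 10 Sertoli cell markers had a mean past 1.5-fold lower (median log2 ratio -1.53, summed FPKM 914 in controls and 310 in mutants). This list holds genes already known to be lower in these means. By counting in sections, the authors also reported fewer Sertoli cells per area in *Dhh-Cre* mutants. With TUNEL, a label of cell death, they saw no increase in Sertoli cell death in P3 mutant testes. The 6 markers of interstitial mesenchyme, the 6 of macrophages and the 4 of mesothelium were all past 1.5-fold higher there, with median log2 ratios of 1.19, 1.07 and 1.24. Endothelial cell markers had a median of 0.74 (5 of 5 higher, 3 past 1.5-fold) and Leydig cell markers one of 0.57 (5 of 6 higher, 3 past 1.5-fold, with *Lhcgr* past it lower). Germ cell markers had a median of 0.04 at P3, with 1 of 8, *Nanos2*, past 1.5-fold lower. In *Nanos3-Cre* mutants at P1, the 6 measured germ cell markers had lower means, 5 of them past 1.5-fold, with a median of -0.84. The authors described the testes of these mutants as normal in appearance until about 1 month after birth. In their own comparison at P1 they reported significant misexpression of *Slc25a42*, *Chodl*, *Cbln1* and *Nxf2* only. None of these is a marker or a member here. Macrophage and mesothelium markers had medians of 0.61 and 0.38 at P1, and the other lists of these testis cells lay between 0.04 and 0.19. Neutrophil genes summed to 70.7 FPKM in P3 controls and 5.59 FPKM in *Dhh-Cre* mutants, but to 50.3 FPKM in P1 controls and 167 FPKM in *Nanos3-Cre* mutants. Red cell genes had lower medians in both mutants (-0.49 at P3 and -0.36 at P1), although *Slc4a1* was higher at P1. Whether a single library carried these blood cell differences could not be seen in the means.

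The members were expressed at moderate levels in each group, and most of the pathway was present as mRNA. Their median was 7.0 FPKM in P3 controls, beside 5.14 FPKM over the genes with at least 0.5 FPKM in that group. In P3 controls 7 members were at 20 FPKM or more, 17 between 5 and 20, 12 between 1 and 5, and 2 under 1. *Mcl1*, a survival protein gene, was the highest in every group, at 74.9, 78.7, 80.3 and 75.3 FPKM in P1 controls, *Nanos3-Cre* mutants, P3 controls and *Dhh-Cre* mutants. It was followed in P3 controls by *Birc2* (42.1 FPKM), *Bok* (40.5 FPKM), *Bcl2l2* (30.2 FPKM) and *Ccng1* (28.8 FPKM). The death receptor gene *Fas* and its ligand gene *Fasl* were the lowest in P3 controls, at 0.880 and 0.0910 FPKM. Neighbors in this order cannot be told apart without the spread between samples.

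**Figure D1:**
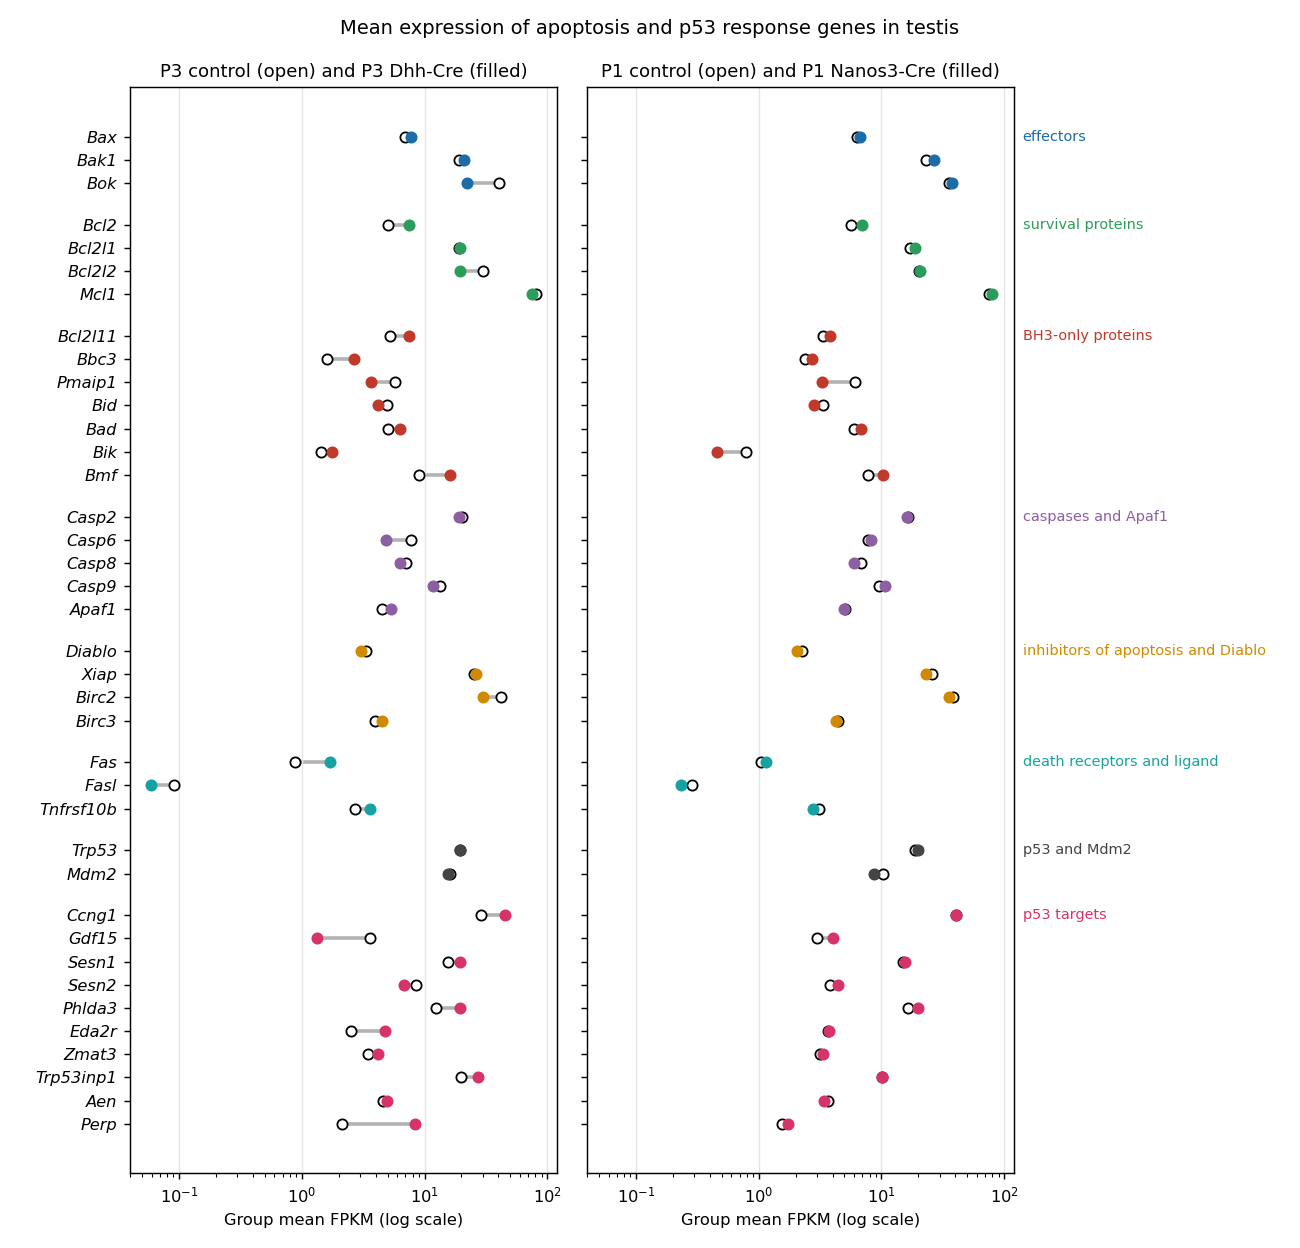
Group mean FPKM of the 38 genes on a log axis, ordered by role, for P3 (left) and P1 (right), with controls as open circles, mutants as filled circles and a gray bar joining them. The longest bars at P3 belong to *Perp* (2.12 to 8.43 FPKM) and *Gdf15* (3.58 to 1.34 FPKM), and bars are short at P1 except for *Pmaip1* and *Bik*.

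The comparison of *Dhh-Cre* mutants with controls at P3 addresses what changed in testes whose Sertoli cells lacked *Lrh1*. Several p53 target genes, above all *Perp*, had higher means in mutants, whereas the p53 targets *Gdf15* and *Pmaip1* had lower means. *Trp53* itself and its target *Mdm2* hardly differed, and *Bok* and *Bcl2l2* had lower means. Of the 37 measured members, 7 were past 1.5-fold higher (18.9%), namely *Perp*, *Eda2r*, *Fas*, *Bmf*, *Bbc3*, *Phlda3* and *Ccng1*. Among all 16923 genes measured, 12.5% were past 1.5-fold higher. Another 5 members (13.5%) were past 1.5-fold lower, namely *Gdf15*, *Bok*, *Casp6*, *Pmaip1* and *Bcl2l2*, beside 8.34% of all genes. The median log2 ratio of the members was 0.13, with quartiles of -0.16 and 0.46, and that of all genes was 0.00, with quartiles of -0.21 and 0.27. The 25 other members lay within 1.5-fold, and 18 of the 37 (48.6%) had a log2 ratio under 0.32 in size, beside 60.6% of all genes. A 2-fold limit left only *Perp* higher and *Gdf15* lower, beside 4.75% and 3.58% of all genes.

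The effectors BAX, BAK and BOK form pores in mitochondrial or other membranes. *Bok*, on chromosome 1 of GRCm38 from 93685660 to 93695764, was the most abundant of their mRNAs in controls, and its mean was 40.5 FPKM in P3 controls and 22.1 FPKM in *Dhh-Cre* mutants, a 1.83-fold lower value. *Bax* had means of 6.92 and 7.76 FPKM and *Bak1* of 19.1 and 20.9 FPKM, so both had log2 ratios under 0.32. *Bok* therefore made up 60.9% of the summed effector FPKM in P3 controls and 43.5% in mutants, and the sum itself was 66.5 and 50.8 FPKM. At P1 *Bok* had similar means, 35.5 FPKM in controls and 37.5 FPKM in *Nanos3-Cre* mutants. Its log2 ratio of -0.87 at P3 lay above the median of the Sertoli cell markers (-1.53) and also above their highest value (-0.96, *Dmrt1*). The part of Sertoli cell content in the lower *Bok* mean was not tested.

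Among the survival proteins, which bind BH3 domains and so restrain the effectors, *Bcl2l2*, the gene of BCL-W, had a mean of 30.2 FPKM in P3 controls and 19.3 FPKM in *Dhh-Cre* mutants (1.56-fold lower). Whether Sertoli cell content had a part in this was not tested. BCL-W is known to be needed in the mouse testis for spermatogenesis to be sustained. *Bcl2* was higher in mutants instead (5.04 and 7.43 FPKM), a 1.46-fold higher value that stayed just short of the limit. *Bcl2l1*, the gene of BCL-XL, had means of 19.2 and 19.3 FPKM, and *Mcl1* of 80.3 and 75.3 FPKM. The ratio of *Bcl2l2* to *Bcl2* mRNA was thus 5.98 in P3 controls and 2.60 in *Dhh-Cre* mutants, against 3.60 in P1 controls and 2.97 in *Nanos3-Cre* mutants. Because *Mcl1* alone supplied 59.6% of the summed survival FPKM in P3 controls, that sum differed less, at 135 and 121 FPKM. At P1 the 4 survival genes had slightly higher means in mutants, with log2 ratios from 0.03 (*Bcl2l2*) to 0.30 (*Bcl2*).

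BH3-only proteins carry the death signal to the rest of the family, and their genes showed the widest spread within the BCL2 family. *Bmf*, whose protein is released from the cytoskeleton when cells lose attachment, had means of 9.05 FPKM in P3 controls and 16.3 FPKM in *Dhh-Cre* mutants (1.79-fold higher). At P1 it had means of 7.75 and 10.4 FPKM (1.33-fold higher), the largest ratio of the members there, and it was the most abundant BH3-only mRNA in each of the 4 groups. *Bbc3*, the gene of PUMA and a p53 target, had means of 1.60 and 2.65 FPKM at P3 (1.62-fold higher) and of 2.40 and 2.73 FPKM at P1. *Bcl2l11*, the gene of BIM, which responds to withdrawal of growth factors, had means of 5.21 and 7.43 FPKM at P3 (1.42-fold higher) and of 3.34 and 3.84 FPKM at P1. *Bad*, whose protein is inactivated by growth factor signaling, had means of 5.00 and 6.31 FPKM at P3 (1.26-fold higher).

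*Pmaip1*, the gene of NOXA, a p53 target whose protein binds MCL1, was the only member past 1.5-fold in the same direction in both mutants. Its mean was 6.13 FPKM in P1 controls and 3.27 FPKM in *Nanos3-Cre* mutants (1.84-fold lower), and 5.80 FPKM in P3 controls and 3.67 FPKM in *Dhh-Cre* mutants (1.56-fold lower). *Bik*, a gene of another BH3-only protein, had 0.791 FPKM in P1 controls and 0.458 FPKM in *Nanos3-Cre* mutants (1.60-fold lower), but 1.45 and 1.78 FPKM at P3 (1.21-fold higher). *Bid*, which links death receptors to mitochondria once caspase-8 has cut its protein, had lower means in both mutants, 3.37 and 2.80 FPKM at P1 and 4.93 and 4.16 FPKM at P3. The summed BH3-only FPKM was 33.0 in P3 controls and 42.3 in *Dhh-Cre* mutants, and 29.8 and 30.3 at P1. *Pmaip1* supplied 20.6% of that sum in P1 controls and 10.8% in *Nanos3-Cre* mutants.

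**Figure D2:**
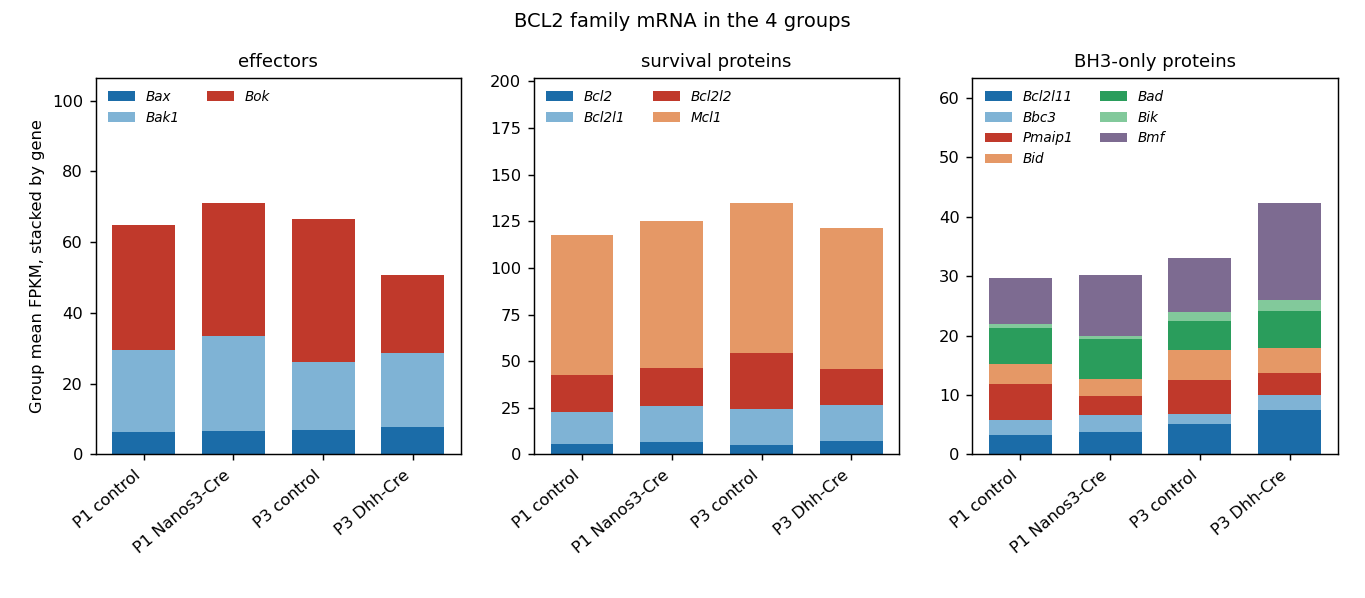
Group mean FPKM of the effector, survival and BH3-only genes of the BCL2 family, stacked by gene for the 4 groups, with bars starting at 0. The effector bar is lowest in P3 *Dhh-Cre* mutants (50.8 FPKM) through *Bok*, and the BH3-only bar is highest there (42.3 FPKM) through *Bmf*.

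The initiator and executioner caspases carry out proteolysis downstream of these proteins. *Casp6*, an executioner caspase gene, had a mean of 7.74 FPKM in P3 controls and 4.82 FPKM in *Dhh-Cre* mutants (1.59-fold lower), whereas its P1 means were 7.82 and 8.21 FPKM. Whether Sertoli cell content had a part in the lower *Casp6* mean at P3 was not tested. *Casp9*, the gene of the caspase that APAF1 activates, had 13.5 and 11.8 FPKM at P3, and *Casp8*, the initiator at death receptors, 7.07 and 6.32 FPKM. *Casp2* was the most abundant of the 4 caspases and had log2 ratios of -0.07 and -0.02 in the P3 and P1 mutants, with 20.1 and 19.1 FPKM at P3. *Apaf1* had means of 4.50 and 5.29 FPKM at P3 and of 5.03 and 4.93 FPKM at P1.

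The inhibitors of apoptosis bind caspases or act as ubiquitin ligases in TNF receptor signaling. *Birc2*, the gene of cIAP1 and the second most abundant member in P3 controls, had a mean of 42.1 FPKM in P3 controls, beside 29.7 FPKM in *Dhh-Cre* mutants (1.42-fold lower). *Xiap*, whose protein inhibits caspases directly, had 25.5 and 26.4 FPKM, and *Birc3* had 3.97 and 4.48 FPKM. *Diablo*, whose protein leaves mitochondria and displaces these inhibitors, had 3.34 and 3.05 FPKM at P3. The log2 ratios of these 4 genes at P1 ran only from -0.16 to -0.06.

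Death receptor genes were at low levels. *Fas* had means of 0.880 FPKM in P3 controls and 1.69 FPKM in *Dhh-Cre* mutants (1.83-fold higher), and 1.05 and 1.16 FPKM at P1. With 1 FPKM in place of 0.1 FPKM added to each mean, *Fas*, *Bbc3* and *Pmaip1* fell short of 1.5-fold at P3. *Tnfrsf10b*, the TRAIL receptor gene of the mouse, had 2.73 and 3.63 FPKM at P3 (1.32-fold higher). *Fasl* lay between 0.0590 and 0.285 FPKM in the 4 groups and was too low for a ratio to be read.

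p53 itself did not differ in mean mRNA level between *Dhh-Cre* mutants and controls. *Trp53* had 19.56 FPKM in P3 controls and 19.55 FPKM in mutants, and *Mdm2*, both a target and the main negative regulator of p53, had 16.2 and 15.5 FPKM. At P1 *Trp53* had 18.6 and 20.01 FPKM and *Mdm2* 10.3 and 8.63 FPKM in controls and *Nanos3-Cre* mutants. p53 is controlled largely at the protein level, which was not measured here.

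Of the 10 further p53 targets, 8 had a higher mean in *Dhh-Cre* mutants at P3, 4 of them past 1.5-fold, and 2 had a lower one, 1 of them past it. Among all genes 50.2% had a higher mean, and 12.5% were past 1.5-fold higher and 8.34% lower. The median log2 ratio of the 10 targets was 0.39, beside 0.00 for all genes. *Perp*, on chromosome 10 from 18845020 to 18857073, encodes a membrane protein of desmosomes as well as a p53 effector. Its means were 1.56 FPKM in P1 controls, 1.74 FPKM in *Nanos3-Cre* mutants, 2.12 FPKM in P3 controls and 8.43 FPKM in *Dhh-Cre* mutants. The P3 mutants thus stood apart from the other 3 groups, and the 3.85-fold higher value was matched or passed by 0.355% of all measured genes. The 4 mesothelium markers, keratin and surface genes of epithelium, were between 2.15-fold and 3.08-fold higher in the same comparison, so the ratio of *Perp* lay above each of them. With 1 FPKM in place of 0.1 FPKM added to each mean, the log2 ratio of *Perp* was 1.60 in place of 1.94. The markers were not read at that setting. The part of surface epithelium in the higher *Perp* mean was not tested.

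*Eda2r*, a TNF receptor family gene activated by p53, had means of 2.54 FPKM in P3 controls and 4.75 FPKM in *Dhh-Cre* mutants (1.84-fold higher). *Phlda3*, whose protein inhibits AKT at the membrane, had 12.4 and 19.5 FPKM (1.58-fold higher). *Ccng1*, the gene of cyclin G1, had 28.8 and 44.8 FPKM (1.56-fold higher). At P1 the ratios of these 3 genes were under 0.32 in size, with 3.70 and 3.76 FPKM for *Eda2r*, 16.3 and 19.7 FPKM for *Phlda3* and 40.7 and 40.3 FPKM for *Ccng1*. Both *Ccng1* and *Eda2r* had lower means in P3 controls than in P1 controls, and the *Dhh-Cre* means at P3 were above all 3 other groups for both. The ratios of these targets lay under the medians of mesenchyme (1.19) and macrophage (1.07) markers, and the part of those cells in them was not tested.

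Other p53 targets moved less at P3. *Trp53inp1*, a gene of a stress response and autophagy protein, had 19.9 FPKM in P3 controls and 27.4 FPKM in *Dhh-Cre* mutants (1.37-fold higher), and *Sesn1*, a sestrin gene of the oxidative stress response, had 15.6 and 19.5 FPKM (a log2 ratio of 0.32). *Zmat3*, the gene of an RNA-binding zinc finger protein, had 3.47 and 4.20 FPKM, and *Aen*, the gene of an apoptosis-enhancing nuclease, 4.61 and 4.91 FPKM. *Sesn2*, which is also induced when amino acids run short, had 8.58 and 6.79 FPKM (1.26-fold lower).

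*Gdf15*, on chromosome 8 from 70629393 to 70632456, encodes a secreted stress cytokine of the TGF-beta superfamily and had the lowest ratio of the members. Its mean was 3.58 FPKM in P3 controls and 1.34 FPKM in *Dhh-Cre* mutants, a 2.56-fold lower value that 1.81% of all measured genes matched or passed. At P1 it had 2.99 FPKM in controls and 4.00 FPKM in *Nanos3-Cre* mutants (1.33-fold higher). The log2 ratio of *Gdf15* at P3 (-1.35) lay within the range of the Sertoli cell markers (-2.15 to -0.96). Neutrophil gene medians were -3.41 at P3 and 1.95 at P1. Whether these cells had a part in the *Gdf15* means was not tested. The p53 targets did not move as a block at P3, since log2 ratios from -1.35 (*Gdf15*) to 1.94 (*Perp*) occurred among them.

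RefSeq promoters (GRCm38.p6, from 250 bases before to 50 bases after each annotated start) were searched for the p53 half-site consensus. This is a sequence of 10 bases that reads alike on both strands, and the label of p53 target does not rest on these matches. A RefSeq promoter was found for 32 of the 38 members, 46 promoters in all. The half-site occurred in 10 of these 46 promoters, those of *Aen* (at both annotated starts), *Bax*, *Birc2*, *Bmf*, *Ccng1*, *Fasl*, *Mdm2*, *Sesn1* and *Trp53*. It occurred in 8.36% of all 32851 promoters, and members were chosen in part as p53 targets, so these counts are a description. Of the 10 further p53 targets, a match was found only for *Aen*, *Ccng1* and *Sesn1*, and sites outside the searched bases were not read. No member promoter held 2 half-sites within 13 bases of each other, which 0.0731% of all promoters did. The windows of 60 bases below, each on the strand of its gene, are shown for members with a measured ratio whose match lies upstream of the start in each promoter that holds it, and capitals mark the half-site. Those of *Sesn1* and *Bmf* belong to starts inside the genes, which span 41809935 to 41908424 and 118528757 to 118549687.

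Bmf (chr2:118544766-118544825, minus strand): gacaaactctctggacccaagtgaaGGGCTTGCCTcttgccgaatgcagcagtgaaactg
Ccng1 (chr11:40755437-40755496, minus strand): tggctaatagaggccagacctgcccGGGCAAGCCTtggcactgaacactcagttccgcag
Sesn1 (chr10:41887241-41887300, plus strand): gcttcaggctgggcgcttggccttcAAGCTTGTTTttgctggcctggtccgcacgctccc
Bax (chr7:45467065-45467124, minus strand): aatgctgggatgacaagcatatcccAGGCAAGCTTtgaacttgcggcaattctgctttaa
Trp53 (chr11:69580259-69580318, plus strand): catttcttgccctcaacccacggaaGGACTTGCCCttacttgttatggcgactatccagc
Mdm2 (chr10:117710910-117710969, minus strand): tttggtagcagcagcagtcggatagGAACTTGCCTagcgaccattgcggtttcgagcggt

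The windows are listed by the P3 ratio of their genes, which ran from high to close to none. The log2 ratios in *Dhh-Cre* mutants were 0.84 for *Bmf*, 0.64 for *Ccng1*, 0.32 for *Sesn1*, 0.16 for *Bax*, 0.00 for *Trp53* and -0.06 for *Mdm2*. *Birc2*, with a half-site just past its annotated start, had a ratio of -0.50, and *Aen*, whose half-site lies past one annotated start and upstream of the other, one of 0.09. Members with a half-site in this window were therefore found among genes with higher, similar and lower means, and a match does not show that p53 binds there.

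The same promoters were searched for the letters CAAGGTCA and CAAGGCCA, forms of the sequence that LRH1 and SF1 bind, on both strands. The first occurred in 1.56% and the second in 2.40% of all promoters. Among the members, *Bcl2l1* held the first on the reverse strand and *Mcl1* the second, each in 1 promoter, as marked by capitals. The *Bcl2l1* match belongs to a start inside the gene, which spans 152780668 to 152831728.

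Bcl2l1 (chr2:152828559-152828618, minus strand): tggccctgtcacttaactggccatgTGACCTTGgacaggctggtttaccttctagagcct
Mcl1 (chr3:95658575-95658634, plus strand): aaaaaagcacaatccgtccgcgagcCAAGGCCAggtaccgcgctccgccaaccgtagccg

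Both genes were among the members with the smallest differences at P3, with log2 ratios of 0.01 for *Bcl2l1* and -0.09 for *Mcl1*.

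The comparison at P1 asks for early differences when the germ line lacked *Lrh1*. Differences were small, and the members with the lowest ratios were the BH3-only genes *Pmaip1* and *Bik*, whose values are given above. None of the 37 measured members was past 1.5-fold higher, beside 3.17% of all 16121 genes, and 2 (5.41%) were past 1.5-fold lower, beside 3.46%. The median log2 ratio was 0.07, with 0.02 for all genes, and 33 members (89.2%) had a ratio under 0.32 in size, beside 83.5% of all genes. With 1 FPKM added to each mean, or with a minimum of 2 FPKM, *Pmaip1* alone remained past the limit. The log2 ratios of *Pmaip1* (-0.88) and *Bik* (-0.68) lay on both sides of the germ cell marker median (-0.84), within the range of the 6 markers (-0.98 to -0.53). *Ddx4*, an RNA helicase gene of germ cells, had means of 3.98 and 2.05 FPKM and *Dazl*, an RNA-binding protein gene of germ cells, 12.9 and 6.86 FPKM in the same groups. The part of germ cell content in the lower *Pmaip1* and *Bik* means was not tested. Neither *Pmaip1* nor *Bik* was among the genes that the authors reported as significantly misexpressed at P1. At P3 the log2 ratio was -0.64 for *Pmaip1* and 0.28 for *Bik*. Germ cell markers there had a median of 0.04. *Nanos2* was at -1.24 and the others ran from -0.26 to 0.29, and their part was again not tested.

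**Figure D3:**
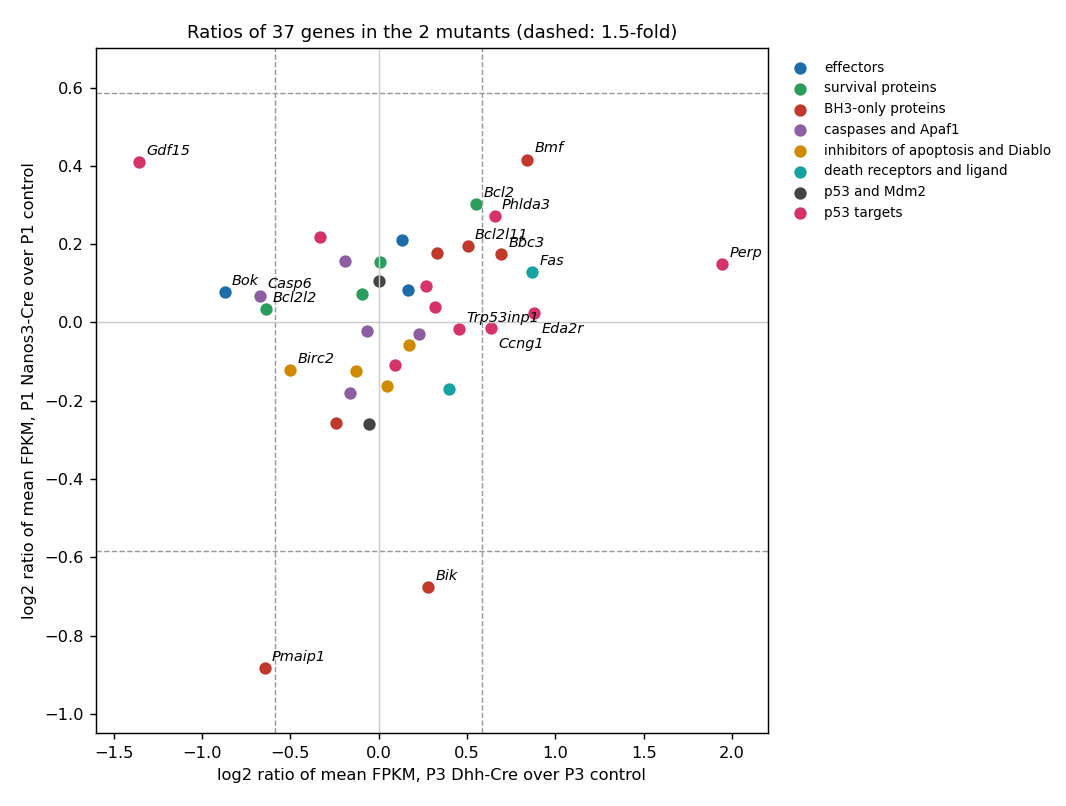
Log2 ratio of mean FPKM of the 37 measured genes in P3 *Dhh-Cre* mutants (x axis) and P1 *Nanos3-Cre* mutants (y axis), each against its own controls, colored by role, with dashed lines at 1.5-fold. *Perp* (1.94) and *Gdf15* (-1.35) lie at the ends of the x axis, and *Pmaip1* is past the dashed line on both axes.

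The mutant comparisons share no samples. Of the 37 members measured in both, 21 (56.8%) had ratios of the same sign, beside 54.2% of 15571 genes. Among those with higher means in both mutants were *Bmf*, *Bcl2*, *Phlda3*, *Bcl2l11*, *Bbc3* and *Fas* (log2 ratios 0.50 to 0.87 at P3 and 0.13 to 0.42 at P1). *Perp* (1.94 at P3 and 0.15 at P1), *Eda2r* (0.88 and 0.02), *Bax*, *Bad*, *Sesn1* and *Zmat3* were also higher in both. So were *Bak1* (0.13 at P3 and 0.21 at P1) and *Bcl2l1* (0.01 and 0.15), which had the larger ratio at P1. *Pmaip1*, *Bid*, *Casp2*, *Casp8*, *Diablo*, *Birc2* and *Mdm2* had lower means in both. Ratios of all genes were wider at P3, with a median size of 0.24, beside 0.12 at P1. *Gdf15* had opposite signs, with -1.35 at P3 and 0.41 at P1. The difference between the comparisons was not tested, and they differ in age, in control genotype and in the cells that were deleted.

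**Figure D4:**
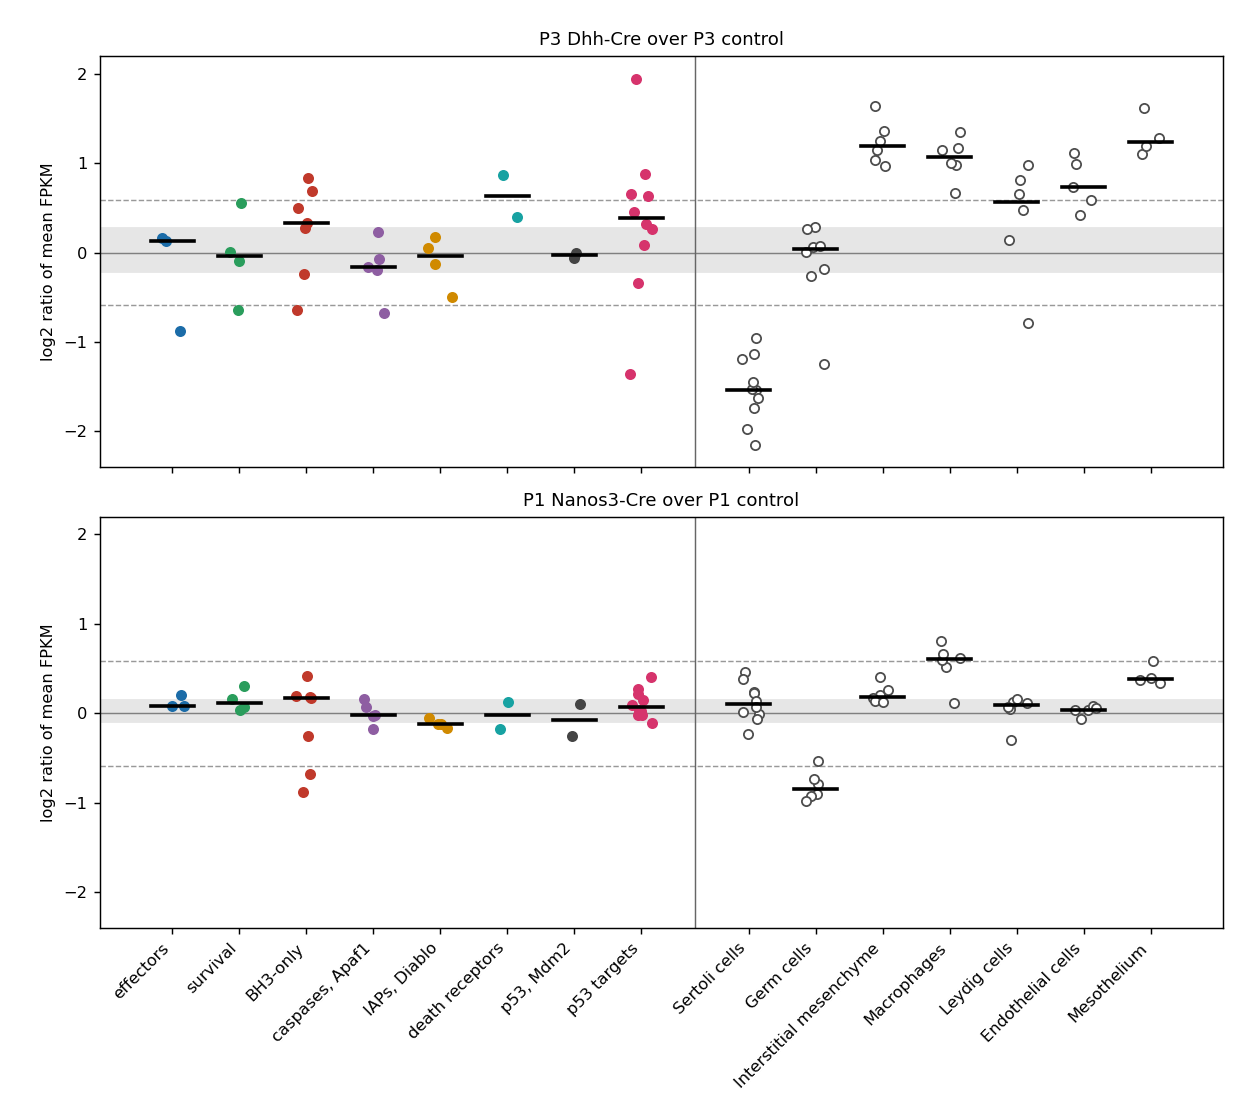
Log2 ratios of mean FPKM for the members by role (filled) and for 7 lists of cell type markers (open), at P3 (top) and P1 (bottom), with black bars at medians, a gray band at the quartiles of all measured genes and dashed lines at 1.5-fold. At P3 the role medians, from -0.16 to 0.63, lie between those of Sertoli cell (-1.53) and mesothelium (1.24) markers.

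Among the roles at P3, the medians were 0.13 for effectors, -0.04 for survival proteins, 0.33 for BH3-only proteins, -0.16 for caspases with *Apaf1*, -0.04 for inhibitors of apoptosis with *Diablo*, and 0.63 for the 2 measured death receptor genes. At P1 the same medians ran from -0.12 (inhibitors of apoptosis with *Diablo*) to 0.17 (BH3-only proteins).

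A further list of 56 genes of these pathways was read in the same way, and 51 of them were measured at P3. Of these 51, 9 were past 1.5-fold higher and 2 past 1.5-fold lower, beside 12.5% and 8.34% of all genes, and the median log2 ratio was 0.03. *Cdkn1a*, a p53 target that encodes the cell cycle inhibitor p21, had 2.53 FPKM in P3 controls and 8.38 FPKM in *Dhh-Cre* mutants (3.22-fold higher). *Casp12*, a caspase gene linked to the endoplasmic reticulum, had 1.91 and 4.36 FPKM, *Trp63*, a p53 family gene of epithelium and oocytes, 0.820 and 1.79 FPKM, and the decoy TRAIL receptor gene *Tnfrsf23* 0.520 and 1.07 FPKM. The other genes of the list past 1.5-fold higher were *Dapk1*, *Dcxr*, *Septin4*, *Tnfsf10* and *Sesn3*, with log2 ratios from 0.59 to 0.83. Only 2 of the 51 were past the limit in the other direction. *Cycs*, the gene of somatic cytochrome c, had 44.7 and 25.8 FPKM (1.73-fold lower), and *Hrk*, a BH3-only gene, 2.56 and 1.53 FPKM (1.63-fold lower). Other p53 targets of the list did not move together. Their log2 ratios at P3 included 0.45 (*Ercc5*), 0.05 (*Ddb2*), -0.18 (*Btg2*), -0.47 (*Gadd45a*) and -0.50 (*Fdxr*). At P1 none of the 50 measured genes of this list was past 1.5-fold in either direction, beside 3.17% of all genes higher and 3.46% lower.

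P3 controls and P1 controls were set side by side to show the levels at the 2 ages. Age, *Lrh1* genotype and RNA input differ together between these groups and cannot be told apart, and the median log2 ratio of all 16521 genes was 0.15. Of the 37 members, 5 (13.5%) were past 1.5-fold higher in P3 controls, beside 18.5% of all genes, and 0 were past 1.5-fold lower, beside 10.1%. *Sesn2* had means of 3.79 FPKM at P1 and 8.58 FPKM at P3 (2.23-fold higher) and *Trp53inp1* of 10.2 and 19.9 FPKM (1.95-fold higher). *Bik*, *Mdm2* and *Bcl2l11* were 1.74-fold, 1.56-fold and 1.54-fold higher. With the median of all genes subtracted the split was 3 higher (*Bik*, *Trp53inp1* and *Sesn2*) and 3 lower (*Bbc3*, *Ccng1* and *Eda2r*). All genes were then 12.3% higher and 14.5% lower. With both means rescaled to equal sums the split was 10 higher and 0 lower, beside 33.5% and 5.82% of all genes. The 7 members past 1.5-fold higher in *Dhh-Cre* mutants differed in sign between the control groups, and that comparison shares the P3 controls with the mutant comparison. The log2 ratios of P3 to P1 controls were 0.42 for *Perp*, 0.22 for *Bmf*, -0.23 for *Fas*, -0.40 for *Phlda3*, -0.50 for *Ccng1*, -0.53 for *Eda2r* and -0.56 for *Bbc3*. Rescaled to equal sums they were 0.65, 0.46, -0.01, -0.16, -0.26, -0.29 and -0.33 in the same order.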

How the data were processed

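Stranded mRNA libraries were made from whole testes at P1 and P3, in 4 groups of 4 samples, grouped by their labels. The authors used FastQC 0.11.8 for quality and Trim Galore 0.6.0 with cutadapt 1.18 for trimming, mapped reads with STAR 2.7.2a to GRCm38 (mm10) and estimated strand-specific expression on GENCODE M25 with RSubread 2.2.6. Mean FPKM values of the groups were deposited by the authors (basis of the library total: not given in the sources used here). Log2 fold changes, adjusted p-values and mean counts from the authors' own comparisons with DESeq2 were not used. Depth per sample and spread between samples are unknown from group means, so no test was fitted.

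Log2 ratios used a pseudocount of 0.1 FPKM, a minimum of 0.5 FPKM over the groups compared and a 1.5-fold limit, over 35983 genes. Their computation was run on simulated means with 2-fold changes planted in genes at 1 FPKM or more. That simulation assumed a spread between samples, which is unknown here, so it is no check of the 1.5-fold calls. Alternatives were other pseudocounts, minimums, limits and scalings. The members and lists (further pathway genes and markers of Sertoli, germ, mesenchyme, macrophage, Leydig, endothelial, neutrophil, red and mesothelium cells) were chosen with earlier results of these data known. All members are named, with *Cdkn1a*, *Nr5a2* and up to 4 further pathway genes in each direction past the limit. *Ddx4*, *Dazl*, *Dmrt1*, *Nanos2*, *Lhcgr*, *Slc4a1*, *Ercc5*, *Ddb2*, *Btg2*, *Gadd45a* and *Fdxr* were named after their values were seen. The same holds for *Dapk1*, *Dcxr*, *Septin4*, *Tnfsf10* and *Sesn3*. Positions come from GENCODE M21 (GRCm38), which holds 99.7% of the gene IDs. Python 3.11.15, numpy 2.4.6, pandas 2.3.3 and matplotlib 3.10.9 were used.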

Additional observations from a re-analysis of the deposited data

How the results depend on the processing

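No paired analysis was possible because the values are group means, and for the same reason no replicate could be left out. No member past 1.5-fold changed direction under any pseudocount or scaling tried. At P3 the counts of 7 higher and 5 lower stayed within 1.5 times under both pseudocounts, both minimums and both scalings. At a narrower limit (log2 ratio of 0.32) they were 12 higher and 7 lower, beside 22.0% and 17.4% of all genes. At 2-fold they were 1 higher and 1 lower, beside 4.75% and 3.58%. At P1 the count of 2 lower was 1 with a pseudocount of 1 FPKM, beside 1.47% of all genes. It was 1 with a minimum of 2 FPKM (1.08%) and 0 at 2-fold (1.39%). The count of 0 higher was 2 at the narrower limit, beside 8.9%. Between the controls, the count of 5 higher was 3 with a pseudocount of 1 FPKM, beside 11.0% of all genes. It was 3 less the median of all genes (12.3%) and 10 rescaled to equal sums (33.5%). At the narrower limit it was 10 (35.7%) and at 2-fold 1 (6.36%). The count of 0 lower there was 1 with no minimum (*Fasl*), beside 11.0% of all genes. It was 3 less the median (14.5%) and 4 at the narrower limit (18.9%).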

Other observations

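Because *Perp* encodes a desmosome protein, 10 genes of epithelial adhesion and keratins were read after its value was seen. At P3, 5 of them were past 1.5-fold higher in *Dhh-Cre* mutants and none was past it lower, beside 12.5% and 8.34% of all genes. *Krt7* and *Krt18*, keratin genes of simple epithelium, had means of 1.12 and 3.38 FPKM and of 24.1 and 50.7 FPKM in controls and mutants, and *Pkp3*, a desmosomal plakophilin gene, 0.525 and 1.28 FPKM. *Pkp2*, the other plakophilin gene read, had 1.94 and 2.21 FPKM. *Epcam* and *Cdh1*, adhesion genes that germ cells also express, had 12.8 and 27.7 FPKM and 5.06 and 9.01 FPKM. The core desmosome genes differed less. *Dsp*, the gene of desmoplakin, had 6.59 and 7.09 FPKM, *Dsg2* 2.86 and 2.51 FPKM, *Dsc2* 2.81 and 1.88 FPKM and *Jup* 5.67 and 5.26 FPKM. *Perp*, with a log2 ratio of 1.94, was above each of the 10 (-0.56 to 1.52). At P1, 9 of the 10 were measured, and *Krt7*, *Cdh1*, *Epcam* and *Krt18* were past 1.5-fold higher in *Nanos3-Cre* mutants, beside 3.17% of all genes. *Perp* had a ratio of 0.15 there. The part of epithelial cells in the *Perp* means was not tested.

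*Hrk*, the BH3-only gene that was lower at P3, had means of 0.495 FPKM in P1 controls and 0.153 FPKM in *Nanos3-Cre* mutants, under the minimum for a call at P1, and 2.56 FPKM in P3 controls. It was the furthest apart of the pathway genes between the control groups, with a log2 ratio of 2.16. *Cycs* had its highest mean in P1 controls (96.1 FPKM), followed by *Nanos3-Cre* mutants (77.0 FPKM), P3 controls (44.7 FPKM) and *Dhh-Cre* mutants (25.8 FPKM). Its reads can be shared with processed pseudogenes.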
